A study of Danio rerio with 9 samples.

Results

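The thin filament of striated muscle is described here through 10 genes, found by symbol in the deposited table among its 21109 genes and transcripts. They encode the skeletal muscle actins (acta1a, acta1b), the cardiac-type actins (actc1a, actc1b), fast troponin T (tnnt3a, tnnt3b), tropomyosin (tpma), slow-type troponins C and I (tnnc1b, tnni1b) and nebulin (neb). Of these, 9 were spelled in the table as listed, and nebulin stood there as NEB. Their identifiers in the table are acta1a ENSDARG00000036371, acta1b ENSDARG00000055618, actc1a ENSDARG00000042535, actc1b ENSDARG00000099197, tnnt3a ENSDARG00000030270, tnnt3b ENSDARG00000068457, tpma ENSDARG00000033683, tnnc1b ENSDARG00000037539, tnni1b ENSDARG00000052708 and neb ENSDARG00000032630. The rule used gene symbols and no measured value. All 10 had counts for the control MO libraries and those labelled sf3b1 MO, and FPKM for all 9 libraries.

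A thin filament is a double strand of polymerised actin along which tropomyosin lies. Troponin sits on tropomyosin as a complex of a tropomyosin-binding subunit (T), an inhibitory subunit (I) and a calcium-binding subunit (C), and calcium released in the fibre shifts tropomyosin so that myosin heads can bind actin. Nebulin is a giant protein that runs along the filament and stabilises its length. Zebrafish often keep paired copies of such genes, marked a and b, and in the trunk of the embryo fast fibres make up most of the myotome while slow fibres form a superficial layer.

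The libraries came from zebrafish embryos and are labelled as trunk tissue, in 3 groups of 3. The titles name a control MO group, an sf3b1 MO group, and a group given As2S2 in addition to the sf3b1 MO. A morpholino (MO) is an injected antisense oligomer whose effect is transient and need not be complete. The gene sf3b1 codes for a spliceosome subunit, and As2S2 is an arsenic sulfide. Strain, age, doses and any pooling of embryos are not stated by the labels, and the series text writes of a knockout although the titles name a morpholino. Red blood cells and smad7 are the subject named in the series title. Since no label ties a replicate to its own clutch, p-values reflect the spread among these libraries, which may be technical.

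Total counts ran from 21942696 to 28702980 in the 6 libraries with counts, while no depth is known for the As2S2 libraries. The targeted gene did not settle the labels: sf3b1 stood at 877 ± 20.3 CPM (counts relative to library size after TMM scaling) in the libraries labelled sf3b1 MO against 541 ± 5.92 in control MO, but at 108 ± 1.75 against 171 ± 4.68 FPKM, which is fragments scaled to transcript length and library size (SD, n = 3). The libraries labelled sf3b1 MO + As2S2 had 169 ± 2.27 FPKM, 98.9% of the control mean, and overlapped control MO. The log2 ratio of sf3b1 MO to control MO for this gene differed by -1.34 (FPKM minus counts). In 9 of the thin filament genes this difference lay between -0.068 and 0.077, and in tnni1b it was 0.40. For sf3b1 the SD of log2 FPKM per count, scaled to library size, was 0.74 over the 6 libraries. With control MO and sf3b1 MO exchanged in the counts it was 0.026. In each thin filament gene the exchange raised this SD, as in tnni1b from 0.41 to 0.75. The counts and FPKM of sf3b1 thus matched only with the groups exchanged between them. Each thin filament gene matched better as labelled, so the mismatch of sf3b1 is not shared by these genes. Other rows were not checked in this way. Red blood cell markers and some listed genes, below, also differed between counts and FPKM. Whether the counts or the FPKM of sf3b1 stand under the wrong groups was not tested, so the 98.9% rests on its FPKM as labelled. Every direction below that involves these libraries rests on their labels.

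Markers of skeletal muscle were abundant: the 15 of 16 listed genes that were found, tnnt3a among them, summed to between 24994 and 25420.2 FPKM in control MO. Heart markers were close to 0, with 7 measured genes, tnni1b among them, summing to between 9.86 and 10.9 FPKM, 5 of them under 1 FPKM on average over the 9 libraries. The 3 smooth muscle markers found summed to between 9.57 and 10.6 FPKM. Against the label of trunk tissue, 9 eye and lens markers summed to between 3529 and 3598 FPKM in control MO.

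In control MO the genes spanned a wide range on the FPKM scale, which is per length. The cardiac-type actin actc1b led at 8049, 8035 and 8224 FPKM and was the gene of rank 4 in the table. Then came tnnt3b at 2909 ± 168 (SD, n = 3; rank 12), acta1b at 1724 ± 29.5 and tpma at 1683 ± 31.5 FPKM. The libraries of acta1b and tpma overlapped, so their order is within the spread; all other neighbours in the order were separate. At lower levels followed tnnt3a (464 ± 6.66), acta1a (346 ± 6.04), actc1a (229 ± 15.0), neb (148 ± 12.2) and tnnc1b (108 ± 2.03 FPKM). For neb, the gene of a giant protein, 148 FPKM stood beside 383 CPM, and for acta1a 346 FPKM beside 604 CPM. The transcript length used for neb was not checked, so its place in this order is uncertain. At 1.92 ± 0.498 FPKM and rank 14990, tnni1b was barely expressed.

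Within each pair 1 copy carried most of the signal. In control MO the level of acta1b was 4.95, 4.92 and 5.06 times that of acta1a in the 3 libraries, that of actc1b 37.9, 34.0 and 34.3 times that of actc1a, and that of tnnt3b 6.75, 5.93 and 6.13 times that of tnnt3a. These are ratios of FPKM within a library. Whether reads of near-identical actin genes were shared between them by the authors' counting was not tested, so the separate levels of the 4 actins are uncertain.

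Together the 10 genes held 3.11% ± 0.0262 of all FPKM in control MO (SD, n = 3), 1.08% ± 0.00193 in the libraries labelled sf3b1 MO and 0.678% ± 0.0122 in those labelled sf3b1 MO + As2S2. The share was lower at each step, without a test, and no libraries of different groups overlapped. By counts it was 2.90% ± 0.0139 in control MO and 0.996% ± 0.0131 in the libraries labelled sf3b1 MO. More than any other gene of the set, actc1b made up this share, with 1.60% ± 0.0180, 0.543% ± 0.0156 and 0.398% ± 0.00681 of all FPKM in the 3 groups. In bulk RNA, fewer muscle cells and less of these RNAs per cell cannot be told apart.

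**Figure D1:**
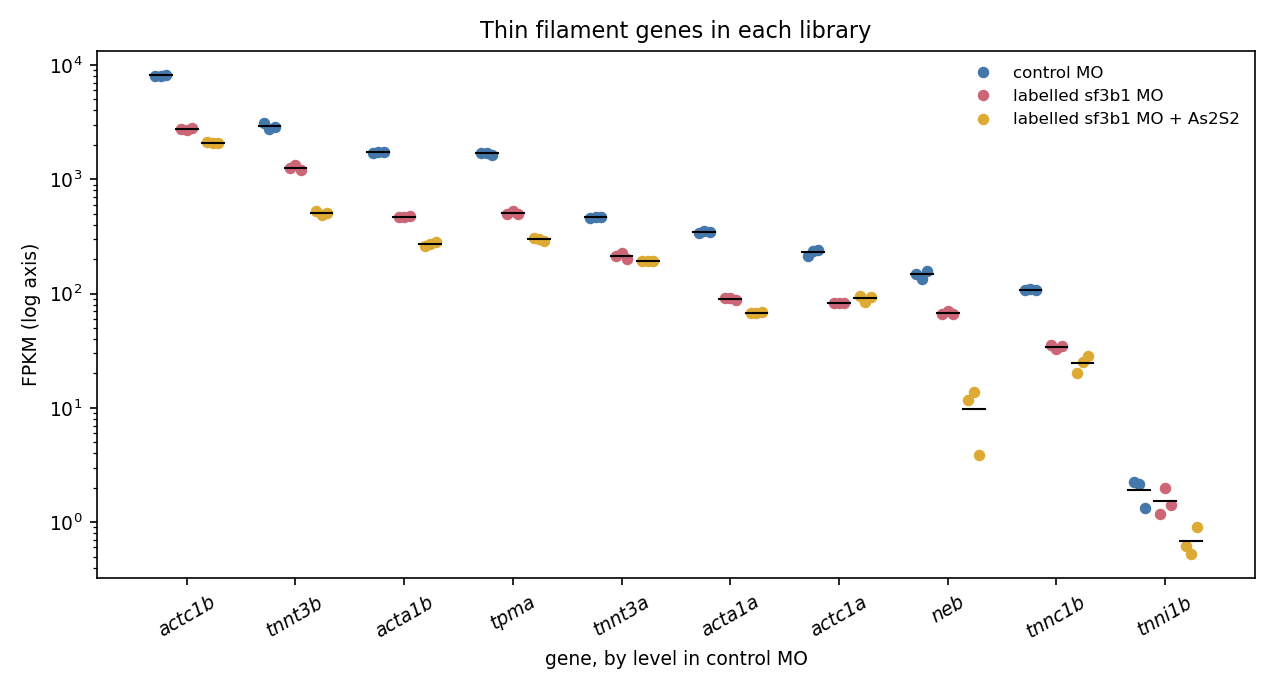
FPKM of each thin filament gene (log axis) in each of the 9 libraries; points are libraries, coloured by group as labelled, and the line is the mean of 3. In every gene but actc1a the mean was lower at each step from control MO to sf3b1 MO to sf3b1 MO + As2S2; the As2S2 points of neb, from 3.86 to 13.6 FPKM, are the most scattered.

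In the RefSeq gene table for the GRCz12tu assembly, used here for gene order only since the data were made on GRCz11, the copies of a pair have partly paired neighbours. Among the 2 protein-coding genes on either side, acta1a has ccsapa and acta1b has ccsapb, actc1a has grem1a and actc1b has grem1b, and tnnt3a has lsp1a and tnnt3b has lsp1b. There tnnt3a lies directly beside myod1, the gene of a myogenic transcription factor, and tnni1b lies directly beside another troponin gene, tnnt2b.

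The first comparison asks what differed with the sf3b1 morpholino, and rests on counts. All 10 genes fell in the libraries labelled sf3b1 MO (edgeR quasi-likelihood test, adjusted p below the threshold of 0.05), where 25.9% of all 20723 genes were called lower and 25.2% higher. At least 2-fold falls were found in 9 of the 10, against 7.77% of all genes. The median log2 fold change over the 10 was -1.50, and over all genes -0.016. The authors' deposited table gives log2 fold changes of -1.90 to -0.70 for the 10 genes.

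The skeletal actins had the largest log2 fold changes of the 10. In control MO acta1a stood at 599.6, 615 and 598 CPM, and in the libraries labelled sf3b1 MO at 161, 161 and 159 (log2 fold change -1.91, SE 0.029, edgeR adjusted p = 8.4e-15). For acta1b the values were 2840.3, 2884 and 2889.7 against 793, 788 and 819 CPM (log2 fold change -1.84, SE 0.025, edgeR adjusted p = 4.3e-15). Means of both genes were 26.5% and 27.9% of control, and the groups were far apart. The cardiac-type actins, which zebrafish express in trunk muscle as well, had smaller ones: actc1b went from 15536, 15375 and 15668 to 5327, 5241 and 5535 CPM (-1.53), and actc1a from 326, 334 and 338 to 119.5, 119 and 121 CPM (-1.47).

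Fast troponin T had smaller log2 fold changes than the actins. Its main copy tnnt3b went from 3310.2, 3077 and 3032 to 1414, 1437 and 1432 CPM (-1.14, SE 0.031), and tnnt3a from 567, 571 and 576 to 268, 284 and 255 CPM (-1.09, SE 0.037). Tropomyosin fell too: tpma, the alpha tropomyosin of muscle, was at 5323, 5245 and 5114 CPM in control MO and at 1664, 1703 and 1693 in the libraries labelled sf3b1 MO (-1.63). For tnnc1b, a slow-type troponin C, the values were 102, 104 and 101 against 33.8, 31.3 and 33.7 CPM (-1.63). Nebulin was nearer to troponin T, with 366, 377 and 407 against 164, 174 and 169 CPM (-1.18). In none of these genes or the actins did the groups overlap. Of all genes 30.8% were lower and 29.3% higher without overlap.

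The least abundant gene gave the least certain result. In control MO tnni1b, a troponin I related to the slow and cardiac forms, had 4.58, 3.62 and 3.83 CPM. Those labelled sf3b1 MO had 2.29, 2.42 and 2.62 CPM (log2 fold change -0.71, SE 0.20, edgeR adjusted p = 0.0098). Without control MO replicate 1 the call was lost (-0.60, edgeR adjusted p = 0.056). It was not called by FPKM either, the only one of the 10, where 26.4% of genes were called lower (-0.21, limma adjusted p = 0.33). There 1.34 to 2.24 FPKM in control MO overlapped 1.17 to 1.99.

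Marker lists differed as well, in both directions, and their part in the result was not tested. Of 15 skeletal muscle markers 14 fell and 0 rose by counts, with sums of 28757 to 29529.6 CPM in control MO and 13979 to 14489 in the libraries labelled sf3b1 MO. Epidermal markers fell in 7 of 8 cases, from 5019 to 5089 down to 1324 to 1349 CPM, and eye and lens markers in 8 of 9. Neuronal markers rose in 7 of 8 cases and fell in 0, with sums of 3988 to 4034 against 5197 to 5272 CPM. The 4 red blood cell markers found summed to 515 to 545 against 531 to 542 CPM, with 1 lower and 1 higher. Of 7 heart markers tested, tnni1b among them, 2 were lower and 1 higher. Of 3 smooth muscle markers 0 were lower and 0 higher. Over all genes the shares were 25.9% lower and 25.2% higher.

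**Figure D2:**
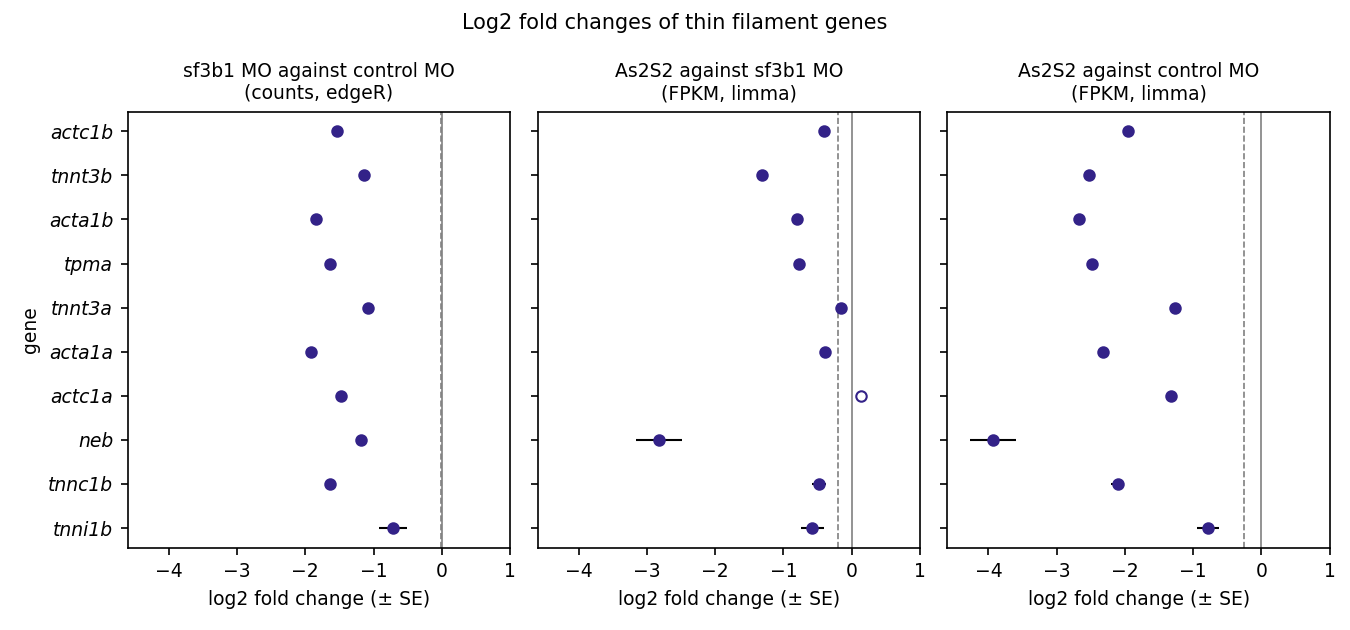
Log2 fold change of each gene with its SE in the 3 comparisons, by edgeR on counts and by limma on log2(FPKM + 1); filled points passed the adjusted p of 0.05, the solid line is 0 and the dashed line the median of all genes tested. All 10 points are left of the dashed line in the first and last comparisons, and neb is the lowest in both As2S2 comparisons, at -2.82 and -3.94.

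The second comparison asks what differed when As2S2 was added to the morpholino. It rests on FPKM, tested as log2(FPKM + 1) with limma. Without counts for the As2S2 libraries, whether their FPKM follow the counts could not be checked for any gene. This limit holds for neb and the troponin T pair too, and for the third comparison. On this scale the change of a gene at low FPKM is understated. Of the 10 genes 9 were called lower and actc1a was not called, where 44.5% of the 18013 genes tested were called lower and 17.3% higher. The whole distribution was shifted: the median log2 fold change of all genes was -0.20, so values relative to this median gene are given as well. With each library centred on its median, 6 of the 10 were called lower, 1 higher and 3 not at all, and of all genes 27.4% were lower and 30.2% higher.

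On the log2(FPKM + 1) scale, falls of at least 2-fold were found in 2 genes, neb and tnnt3b, against 7.04% of all genes. In plain FPKM tnni1b, near 1 FPKM, was 2.21-fold lower too. The filter, which asks for 1 FPKM in at least 3 libraries, kept all 10. As tnni1b reached 1 FPKM in no As2S2 library, it passed only through the groups where it was higher. The same can hold for listed genes and markers under 1 FPKM with As2S2, so their calls as lower count for less. Without overlap between groups, 9 of the 10 were lower and 1 higher, where 46.8% of all genes were lower and 19.1% higher.

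Nebulin had the lowest values relative to the other groups. It stood at 66.1, 70.9 and 65.7 FPKM in the libraries labelled sf3b1 MO and at 11.7, 13.6 and 3.86 in those labelled sf3b1 MO + As2S2 (log2 fold change -2.82, SE 0.34, limma adjusted p = 7.6e-05; -2.62 relative to the median gene). The groups were far apart, but As2S2 replicate 3 lay well below the other As2S2 libraries. Without it the log2 fold change was -2.33 (limma adjusted p = 2.6e-07), and it was called whichever library was left out.

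The 2 fast troponin T copies had unlike values. The main copy tnnt3b went from 1267, 1323 and 1197 to 525, 485 and 508 FPKM (-1.32, SE 0.051, limma adjusted p = 5.6e-08; -1.11 relative to the median gene). For tnnt3a the values were 215, 226 and 202 against 192, 193 and 193 FPKM (-0.15, SE 0.038, limma adjusted p = 0.0073). This small fall had the opposite sign relative to the median gene (0.053), and after centring tnnt3a was not called (0.076, limma adjusted p = 0.12).

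Among the actins, acta1b went from 469, 463 and 479.7 to 263, 269 and 281 FPKM (-0.80; -0.59 relative to the median gene). The smaller falls of acta1a, from 91.0, 90.6 and 88.7 to 67.4, 68.2 and 68.9 FPKM, and of actc1b, from 2740.5, 2681 and 2821 to 2106, 2059.8 and 2081, were nearly equal on the log2 scale (-0.40 and -0.40, or -0.19 and -0.20 relative to the median gene). The exception was actc1a, with 83.1, 81.9 and 83.3 FPKM in the libraries labelled sf3b1 MO and 95.9, 84.4 and 93.7 in those with As2S2. All 3 As2S2 libraries lay above all 3 others, but the change was not called (0.14, SE 0.057, limma adjusted p = 0.060). It was called higher after centring (0.36, adjusted p = 0.00032), and also without control MO replicate 1 (0.14, limma adjusted p = 0.032) or without As2S2 replicate 2 (0.19, limma adjusted p = 0.013).

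Tropomyosin had a fall close in size to that of acta1b: tpma went from 502, 528 and 501 to 305, 302 and 291 FPKM (-0.77; -0.57 relative to the median gene). The slow-type troponins were lower as well. For tnnc1b the values were 35.2, 32.4 and 34.8 against 20.1, 25.04 and 28.5 FPKM (-0.47), with a wide spread among the As2S2 libraries. For tnni1b they were 1.17, 1.99 and 1.41 against 0.621, 0.527 and 0.915 FPKM (-0.57 on the log2(FPKM + 1) scale, which shrinks it). In plain FPKM its mean was 45.2% of that in sf3b1 MO, next to 58.6% for tpma and 71.9% for tnnc1b. Neither slow-type gene overlapped between the groups, yet neither was called after centring (limma adjusted p = 0.065 and 0.10), and tnni1b was not called without sf3b1 MO replicate 2 (limma adjusted p = 0.050).

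Of the 15 skeletal muscle markers 12 were called lower here and 0 higher, and their sum was 12538 to 12921 FPKM in those labelled sf3b1 MO, next to 6709 to 6867 with As2S2. Epidermal markers were called higher in 6 of 8 cases and lower in 0, with sums of 718 to 728 against 1569.5 to 1606 FPKM. All 9 eye and lens markers were called lower, with 2506 to 2559 against 905 to 933 FPKM, as were 7 of 8 neuronal markers, and 1 was higher. Of 4 red blood cell markers 3 were called higher and 1 lower, with sums of 269.8 to 287 against 791 to 803 FPKM. In control MO their FPKM summed to 789.8 to 849, a difference from sf3b1 MO that their CPM, above, did not show. Among low-level markers, 3 of 3 heart markers tested, tnni1b among them, and 2 of 2 smooth muscle markers tested were called lower. Over all genes 44.5% were called lower and 17.3% higher. The part of these markers in the result was not tested.

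The third comparison asks how far the As2S2 libraries stood from control MO. It shares its As2S2 libraries with the second comparison and its control libraries with the first. All 10 genes were called lower by limma, where 48.5% of all genes were called lower and 19.5% higher, and all 10 were called lower after centring, too, where the shares were 28% and 34.8%. On the log2(FPKM + 1) scale falls of at least 2-fold were found in 9, all but tnni1b, against 10.9% of all genes. All 10 were lower without overlap, where 51.1% of genes were lower and 21% higher in this way. In these counts tnni1b is weaker, as it reached 1 FPKM in no As2S2 library. It passed the filter only through the groups where it was higher. The median gene stood at -0.25.

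Relative to the median gene, neb was lowest (-3.69, SE 0.34), with 149, 135 and 159 FPKM in control MO against 11.7, 13.6 and 3.86. Then followed acta1b (-2.42), tnnt3b (-2.27), tpma (-2.24), acta1a (-2.08), tnnc1b (-1.86) and actc1b (-1.71). With As2S2 the level of acta1b was 15.7% of its control mean, that of tnnt3b 17.4%, that of tpma 17.8% and that of neb 6.60%. The minor copies actc1a (-1.07) and tnnt3a (-1.01) had the smaller differences of their pairs, at 39.8% and 41.6% of control. On the log2(FPKM + 1) scale the smallest was in tnni1b (-0.53), but in plain FPKM it stood at 35.9% of control, below both minor copies. Called lower were 15 of 15 skeletal muscle, 7 of 8 epidermal, 9 of 9 eye and lens, 5 of 8 neuronal and 3 of 4 red blood cell markers, where 48.5% of all genes were lower. Of the heart and smooth muscle markers tested, 2 of 3 and 1 of 2 were called lower. Called higher were 2 neuronal markers and none of the other lists named here, where 19.5% of all genes were higher. Their part in the result was not tested.

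The order of levels differed with As2S2. At the top were actc1b, tnnt3b, tpma and acta1b, at 2082 ± 23.2, 506 ± 20.1, 299 ± 7.20 and 271 ± 9.49 FPKM (SD, n = 3), with no overlap between neighbours. Below, actc1a stood above acta1a, and tnnc1b above neb, both the reverse of control MO. The rank of actc1b among all genes went from 4 in control MO to 15 under the sf3b1 MO label and 42 with As2S2, and that of neb from 425 to 885 and 5522. The As2S2 ranks are over 20146 genes, the others over 20723. Ranks of neb and its place beside other genes depend on the transcript length used for it, which was not checked.

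Plain ratios of FPKM within a library do not depend on the scaling of that library. Of the 3 pairs the fast troponin T pair differed most with As2S2: tnnt3b stood at 5.90, 5.86 and 5.93 times tnnt3a in those labelled sf3b1 MO, next to 2.73, 2.51 and 2.63 times with As2S2. On the log2(FPKM + 1) scale the difference of the tnnt3a to tnnt3b ratio was 1.17 from sf3b1 MO to As2S2 and 1.26 from control MO to As2S2, next to 0.091 for sf3b1 MO against control MO. By counts the last of these was 0.048 (exact permutation p = 0.6). The cardiac-type actin pair had a difference of the same sign, from 33.0, 32.7 and 33.9 to 21.97, 24.4 and 22.2 (log2 difference 0.54), and the skeletal actin pair from 5.16, 5.11 and 5.41 to 3.90, 3.94 and 4.08 (0.40). In all 3 pairs the minor copy thus made up a larger part of the pair with As2S2, and no As2S2 library overlapped another group.

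**Figure D3:**
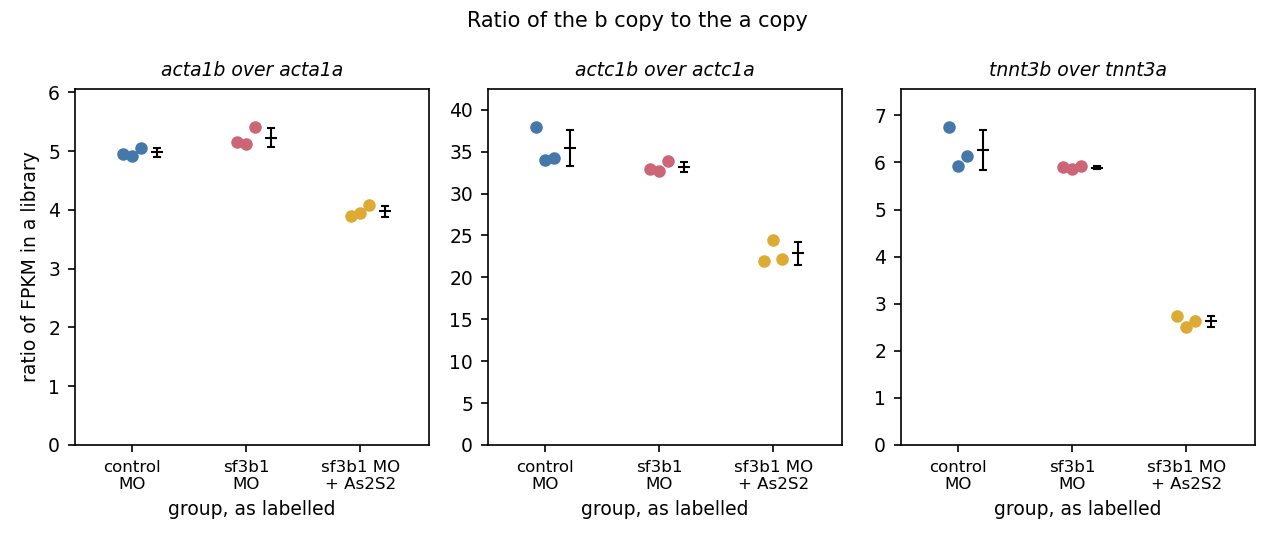
Ratio of FPKM of the b copy to the a copy in each library, for skeletal actin, cardiac-type actin and fast troponin T; points are libraries, and the bar to the right is the mean ± SD of 3. In each panel the 3 As2S2 libraries lie below the 6 others, and tnnt3b over tnnt3a goes from 5.89 ± 0.0372 to 2.62 ± 0.109.

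Skeletal relative to cardiac-type actin was different by -0.39 on the log2 scale between the libraries labelled sf3b1 MO and control MO, and by -0.47 between As2S2 and sf3b1 MO. Nebulin relative to the mean of the 4 actins differed by 0.59 with the sf3b1 morpholino and by -2.46 with As2S2, opposite in sign; without As2S2 replicate 3 the latter was -1.95. The mean of tnnt3a, tnnt3b and tpma relative to that of tnnc1b and tnni1b differed by -0.42 with the morpholino and by -0.22 with As2S2. Both differences rest on tnni1b, at a mean of 1.92 FPKM in control MO, 1.52 in sf3b1 MO and 0.688 with As2S2. By counts the difference with the morpholino was -0.11 (exact permutation p = 0.2), and that with As2S2 came from overlapping groups. An exact two-sided permutation test of 3 against 3 libraries cannot give less than 0.1. By FPKM, 17 of the 18 ratio comparisons gave this value, where the libraries did not overlap (Benjamini-Hochberg adjusted p = 0.11). The 18th gave p = 0.2 by the same exact test, so none passed the threshold of 0.05.

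Other genes of the thin filament and its surroundings were read from 4 lists. Other sarcomeric troponin and tropomyosin genes were found in 20 of 26 cases. By counts 12 of 20 were called lower and 1 higher with the morpholino, with a median log2 fold change of -0.80. By FPKM 14 of 17 tested were lower with As2S2 than in sf3b1 MO (median -0.40 relative to the median gene). Of these 14, tnnt2a, tnni1d and tnni2a.1, named after their values were seen, averaged under 1 FPKM with As2S2. Such genes could pass the filter through the groups where they were higher. Against control MO 15 of 17 were lower (median -1.26 relative to the median gene), with 0 higher in either As2S2 comparison. Among these 15 is tnni2a.1, for which the same limit holds. Over all genes 25.9% were lower by counts, and 44.5% and 48.5% in the As2S2 comparisons. After centring, 8 were lower and 1 higher with As2S2 than in sf3b1 MO, next to 27.4% and 30.2% of all genes. The most abundant were tnni2a.4, a fast troponin I, at 1646 ± 26.8, 538 ± 39.6 and 414 ± 6.30 FPKM in control MO, sf3b1 MO and As2S2, and tnnc2.2, a fast troponin C, at 1007 ± 9.59, 352 ± 64.4 and 93.9 ± 14.7 FPKM (SD, n = 3). Next was tpm2, a beta tropomyosin, at 114 ± 2.84, 45.7 ± 6.10 and 36.7 ± 2.32 FPKM. By counts its log2 fold change with the morpholino was -0.90, a smaller fall than that of the mean FPKM. All 3 were called lower in each comparison. With As2S2 against sf3b1 MO, tnnc2.2 stood at -1.69 relative to the median gene, next to -0.17 for tnni2a.4 and -0.097 for tpm2. The 1 gene called higher with the morpholino was tnni2a.3, a low-level troponin I, at 4.74 ± 0.560, 8.02 ± 1.67 and 2.59 ± 0.286 FPKM; whether near copies in the tnni2a cluster shared reads was not tested.

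Genes of filament length, capping and assembly were found in 30 of 33 cases. By counts 24 were lower with the morpholino and 0 higher (median -0.95), against 25.9% and 25.2% of all genes. The tropomodulin tmod4, which caps the pointed end in muscle, stood at 91.8 ± 3.10, 28.6 ± 2.27 and 13.4 ± 0.249 FPKM, and was called lower in each comparison. Capping protein subunits, which close the barbed end in all cells, differed less: capzb was at 226 ± 6.83, 142 ± 2.27 and 137 ± 2.75 FPKM and capza1b at 62.7 ± 2.71, 48.0 ± 0.550 and 47.5 ± 1.74 FPKM. With As2S2 against sf3b1 MO, 15 of 26 were lower and 4 higher (7 higher after centring). Of these 15, lmod2b, klhl40a, klhl40b and fhl1a, named after their values were seen, averaged under 1 FPKM with As2S2. The median of this list was -0.095 relative to the median gene. Of all genes 44.5% were lower and 17.3% higher (30.2% after centring), so the count of higher genes is near the background. Neither capzb (-0.052, limma adjusted p = 0.18) nor capza1b (-0.016, limma adjusted p = 0.76) was called.

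By name, the 4 genes called higher with As2S2 were hsp90aa1.1, the Hsp90 of muscle that helps myosin fold, its co-chaperone unc45b, the transcription factor gene srfa and the actin-binding gene xirp1; all but hsp90aa1.1 are named after their values were seen. The level of hsp90aa1.1 was 19.6 ± 0.888, 11.1 ± 0.885 and 68.0 ± 3.01 FPKM (2.71 relative to the median gene), that of unc45b was higher by 1.11, srfa by 0.69 and xirp1 by 0.66 on the same log2 scale. Against control MO, 22 of 26 in this list were lower, and 2, hsp90aa1.1 and xirp1, were higher, where 48.5% and 19.5% of all genes were. Of the 22, lmod2b, klhl40a, klhl40b, fhl1a and xirp2b averaged under 1 FPKM with As2S2, so their calls count for less. Here xirp2b, too, is named after its values were seen.

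Z-disc genes, whose products anchor the barbed ends of thin filaments, were found in 21 of 27 cases. By counts 16 were lower with the morpholino and 1 higher (median -0.98). By FPKM 14 of 19 were lower and 3 higher with As2S2 against sf3b1 MO (median -0.35 relative to the median gene, with 9 lower after centring). Of these 14, synpo2lb and myot, named after their values were seen, averaged under 1 FPKM with As2S2. Over all genes 25.9% were lower by counts, 44.5% lower and 17.3% higher with As2S2, and 27.4% lower after centring, so the share of Z-disc genes called higher is near the background. The most abundant were myoz1b at 189.6 ± 7.14, 51.3 ± 6.51 and 26.8 ± 0.867 FPKM, the alpha-actinin actn3a at 166 ± 10.1, 50.9 ± 8.83 and 28.6 ± 0.407 FPKM and ldb3b at 135 ± 10.9, 52.1 ± 15.1 and 34.4 ± 4.32 FPKM. By counts their log2 fold changes with the morpholino were -1.38, -1.67 and -0.98. For myoz1b and ldb3b these are smaller falls than those of the mean FPKM. The gene called higher with the morpholino was tcap, the titin cap, at 5.59 ± 0.605, 16.1 ± 0.788 and 22.7 ± 2.23 FPKM, higher in both the morpholino groups than in control MO with no overlap. The co-chaperone bag3 stood at 6.24 ± 0.322, 2.86 ± 0.492 and 19.1 ± 1.30 FPKM, lowest with the morpholino alone and highest with As2S2. The remaining gene called higher with As2S2 was flnca, a filamin named after its values were seen, at 0.85 relative to the median gene. Against control MO 16 of 19 were lower and 3 higher (median -1.60 relative to the median gene), where 48.5% and 19.5% of all genes were. Of the 16, synpo2lb, myot and actn2b averaged under 1 FPKM with As2S2, so their calls count for less. Here actn2b, too, is named after its values were seen.

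Non-muscle and smooth muscle actin, tropomyosin and regulator genes were found in 15 of 23 cases. By counts 9 were lower with the morpholino and 1 higher, with a median of -0.28 beside -1.50 for the 10 muscle genes. The falls were uneven, with -1.74 for pfn1 and -0.90 for tpm3, both named after their values were seen. Of all genes 25.9% were lower and 25.2% higher. The cytoplasmic actin actb2 stood at 2477 ± 62.4, 2376 ± 102 and 4138 ± 70.0 FPKM and actb1 at 963 ± 19.4, 853 ± 18.0 and 1034 ± 3.12 FPKM. Both were called higher with As2S2 than in sf3b1 MO (1.003 and 0.48 relative to the median gene), as were 8 of 14 in this list, with 4 lower (1 after centring). Over all genes the shares were 17.3% higher and 44.5% lower (27.4% after centring). The actin monomer binder tmsb4x, at 893 ± 54.7, 866 ± 89.9 and 833 ± 23.7 FPKM, was called in no comparison. Smooth muscle actin acta2, at 5.01 ± 0.738, 2.78 ± 1.03 and 0.285 ± 0.0829 FPKM, was not called with the morpholino (edgeR adjusted p = 0.054) but was called lower with As2S2. As acta2 reached 1 FPKM in no As2S2 library, it passed the filter only through the groups where it was higher. Also lower with As2S2 than in sf3b1 MO were tpm3, tpm4b and tagln, named after their values were seen, and cfl1, a cofilin, was the 1 gene called higher with the morpholino (0.12).

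**Figure D4:**
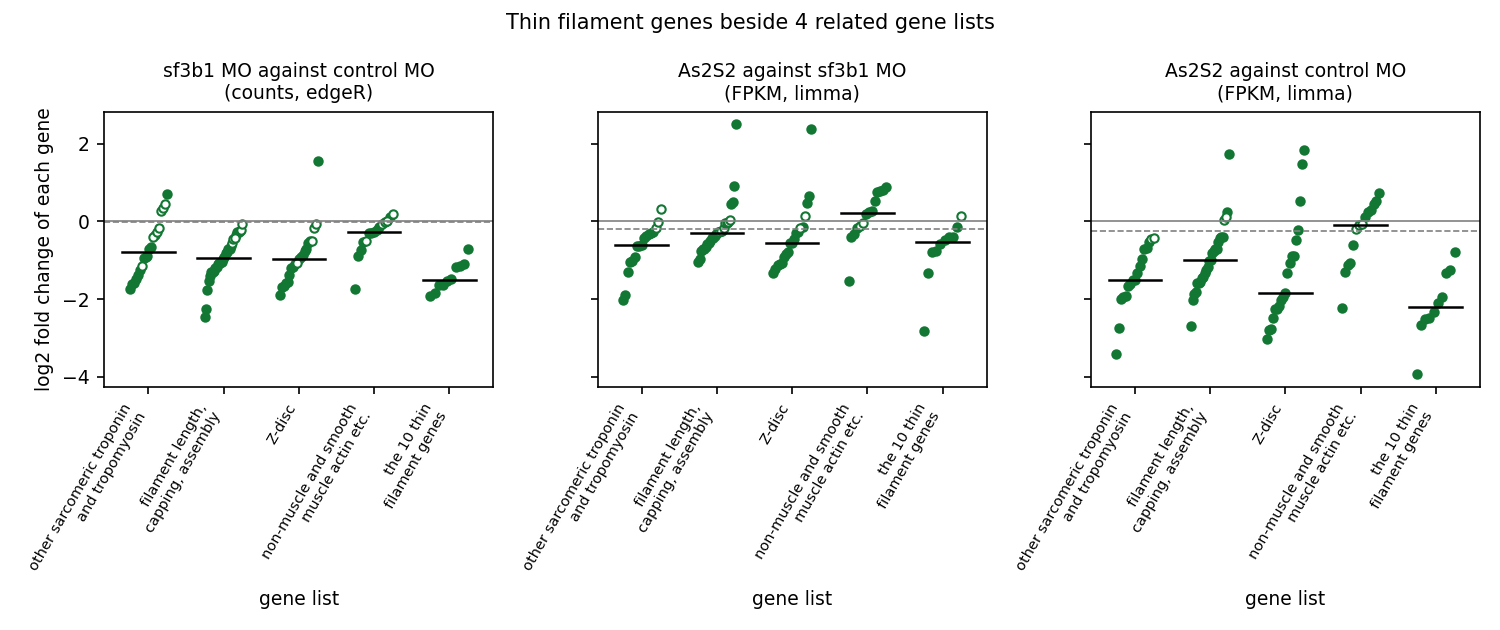
Log2 fold change of each gene in 4 related lists and in the 10 thin filament genes, for the 3 comparisons; filled points passed the adjusted p of 0.05, the short line is the list's median, and the dashed line the median of all genes tested. The median of the 10 genes is -1.50, -0.52 and -2.22 in the 3 comparisons, and that of the non-muscle list -0.28, 0.22 and -0.085.

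The genes closest to the mean profile of the 10 over the 9 libraries were found among 5932 others of at least 10 FPKM on average, by the root mean square difference of log2(FPKM + 1) centred per gene. Closest was myom2a, a myomesin of the M-band, at 0.0508, with 55.9, 19.5 and 11.6 FPKM in control MO, sf3b1 MO and As2S2. The others were pmp22b (75.4, 30.5 and 15.8 FPKM), the muscle cofilin cfl2 (46.9, 18.6 and 10.9 FPKM), the fast myosin light chain myl1 (831, 284 and 175 FPKM) and the calcium store gene casq1b (32.1, 13.0 and 6.94 FPKM), at 0.0711 to 0.0839. Of the 10 themselves actc1b lay closest to their mean (0.151), and neb (0.999) and tnni1b (0.628) farthest.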

How the data were processed

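RNA-seq of poly(A)-selected RNA from 9 libraries was deposited as 1 merged table. Per the submitters' processing notes, fastp 0.22.0, DESeq2 and GRCz11 were used; no aligner or counter is named there. Deposited counts per gene cover control MO and sf3b1 MO (6 libraries), in columns headed ko and wt, and FPKM, normalized by the authors, for all 9. The authors' deposited log2 mean was set against the FPKM columns, their log2 fold changes are quoted where named, and their p-values were not used. All 9 FPKM values exist for 19760 of 21109 genes.

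Counts were tested with edgeR 4.0.16 (quasi-likelihood, TMM, robust; filterByExpr kept all 20723 genes). The SE of its log2 fold change is the change divided by the square root of the F statistic. FPKM were tested with limma 3.58.1 on log2(FPKM + 1), with pseudocount 1, in 1 fit of all 9 libraries, over 18013 genes that reach 1 FPKM in at least 3 libraries. P-values were adjusted by Benjamini-Hochberg over all genes tested. The code of the tests was run on simulated data with known changes, which does not test the calls made here. Alternatives were other scalings, filters and pseudocounts, DESeq2 1.42.0, a replicate block and leaving out each library.

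The genes, lists and tests were chosen with earlier results of these data known. Besides the 10 genes, those named by rule are the 3 most abundant of each list, the called gene most against its list, sf3b1, and the 5 of closest profile. Further genes were picked with their values known and are marked as named after their values were seen. Genes given only as chromosomal neighbours are apart from this.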

Additional observations from a re-analysis of the deposited data

How the results depend on the processing

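Of 410 recomputed log2 fold changes of single thin filament genes, 400 kept their direction and their side of the threshold. The number called lower was 10 with the morpholino under every alternative but FPKM with limma (9) and the fits without 1 library (9 to 10), and 10 in each fit for As2S2 against control MO. For As2S2 against sf3b1 MO it was 9, 6 after centring and 8 to 9 without 1 library, while 1 gene, actc1a, was called higher after centring and in a fit of only the 6 libraries compared (range 0 to 1 without 1 library). Centring reversed tnnt3a to 0.076. In the same comparison centring gave 8 lower and 1 higher in the list of other troponin and tropomyosin genes, 7 higher among assembly genes, 9 lower among Z-disc genes and 1 lower in the non-muscle list; the cause was not tested. Without 1 library the counts were 0 to 1 higher among other troponins and tropomyosins (1 without As2S2 replicate 3), 2 to 4 lower in the non-muscle list (2 without sf3b1 MO replicate 3 or As2S2 replicate 1) and, against control MO, 1 to 2 higher among assembly genes (1 without control MO replicate 1 or 3 or As2S2 replicate 2 or 3). With the morpholino, upper quartile scaling and FPKM each left 0 genes of the non-muscle list higher. Without a pseudocount the difference of the fast to slow ratio with As2S2 against sf3b1 MO reversed to 0.073. Deviations of same-numbered libraries from their group means were correlated at -0.072 to 0.042, and those of differently numbered ones at -0.087 to 0.097. Whether same-numbered libraries share a clutch or batch cannot be told from these values. The replicate block gave 10220, 10926 and 12053 called genes in place of 10592, 11139 and 12249, and 10, 9 and 10 of the 10 lower. Under it 1 other troponin or tropomyosin gene was higher with As2S2. Unknown depth of the As2S2 libraries limits what can be said of tnni1b there.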

Other observations

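The table holds further muscle-type actin genes, named after their values were seen. The level of actc2 was 12.2, 16.6 and 17.2 FPKM in control MO, 3.99, 4.38 and 4.71 in the libraries labelled sf3b1 MO and 2.71, 2.91 and 2.37 with As2S2. It was called lower with the morpholino (edgeR log2 fold change -1.78, adjusted p = 1.6e-07) and lower again with As2S2 (limma, -0.35 relative to the median gene, adjusted p = 0.0041), with no overlap of the groups. For actc1c the values were 12.8, 5.55 and 9.89, then 1.95, 5.33 and 6.52, and 2.73, 3.38 and 6.22 FPKM. These ranges overlapped, and the gene was called neither with the morpholino (edgeR adjusted p = 0.24) nor with As2S2 against sf3b1 MO (limma adjusted p = 0.87), but was called lower with As2S2 against control MO (limma adjusted p = 0.045). Whether these genes shared reads with actc1b was not tested.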
